A study of Mus musculus with 8 samples.

Results

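The genes described here are a cluster of 3 chemokine ligands on mouse chromosome 8, Ccl17, Cx3cl1 and Ccl22, and the receptors of these ligands on chromosome 9, Ccr4 and Cx3cr1. All non-control array probes carrying one of these gene names were taken, which gave 7 probes of 55681 and 5 genes of 35753 named on the array. Ccl17, Cx3cl1, Ccl22 and Ccr4 each had 1 probe and Cx3cr1 had 3. The members were selected on measured values: Ccl17 was chosen by its difference in signal between CKO and WT arrays, and the other 4 genes for lying beside it or being the receptors. Every difference between the groups in these 5 genes is therefore a description and carries no p-value.

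Chemokines are small secreted proteins that guide cells by binding receptors coupled to G proteins. Ccl17 and Ccl22 are ligands of Ccr4, a receptor known from T helper and regulatory T cells, and are known as products of dendritic cells and macrophages. Ccl17 has also been described in mouse hippocampal neurons. Cx3cl1, or fractalkine, is made by neurons as a protein anchored in the membrane, from which the proteases Adam10 and Adam17 release a soluble form. Its receptor Cx3cr1 is carried in the brain by microglia, and the pair is known as a signalling route between neurons and microglia.

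RNA was collected from the hippocampus of 8 untreated mice of the C57BL/6 strain, all adults aged at least 3 months, with 3 males and 1 female in each group. The 4 CKO mice were Ctcf loxP/loxP and the 4 WT mice were Ctcf wild type, and both groups carried Camk2a-Cre and the RiboTag allele of Rpl22. Where the text on the design gives loxP/loxP for controls too, the labels of the single mice were followed. Camk2a drives Cre in excitatory forebrain neurons, where Cre deletes the floxed Ctcf gene, which encodes a DNA-binding organiser of chromatin loops, and switches on an HA tag on ribosomal protein Rpl22. Ribosomes and the RNA on them were pulled down with an anti-HA antibody, amplified, labelled with Cy5 and hybridised to 1 Agilent array per mouse.

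Signals are given on a log2 scale relative to each array's 75th percentile, so that 0 is a signal at that percentile and a step of 1 is a doubling. A probe's level was compared between mice only, because probes differ in brightness for the same amount of RNA, and brightness served otherwise only to group probes for checks of the scaling. Between 72.2% (CKO 3) and 81.5% (WT 1) of probes were well above background. The arrays came from 3 slides, each scanned at one time: slide 1 held WT 1, slide 2 held CKO 1, CKO 2, WT 2 and WT 3, and slide 3 held CKO 3, CKO 4 and WT 4. The first principal component of the genes measured, each by its brightest probe, held 54.4% of the variance. It set the slide 3 arrays (29.6 to 128) apart from the others (-67.4 to -14.6), so the values of the chemokine genes are also given within slides. Ctcf itself lay between -2.56 and -1.96 in CKO mice and between -1.75 and -1.11 in WT mice, at 54.8% of the WT signal, with an exact two-sided permutation p of 0.0286, the smallest that 70 splits of 8 arrays allow. Over all 29529 genes measured, limma called 0 higher and 1 lower in CKO mice at an adjusted p of 0.05, against 738 higher and 829 lower at an unadjusted p of 0.05. Of these 29529, 18552 have a RefSeq gene symbol, and the others are array features without one that are counted as genes here. The material held RNA from many cells, so that fewer cells of a type and less RNA per cell cannot be told apart in any value given here.

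**Figure D1:**
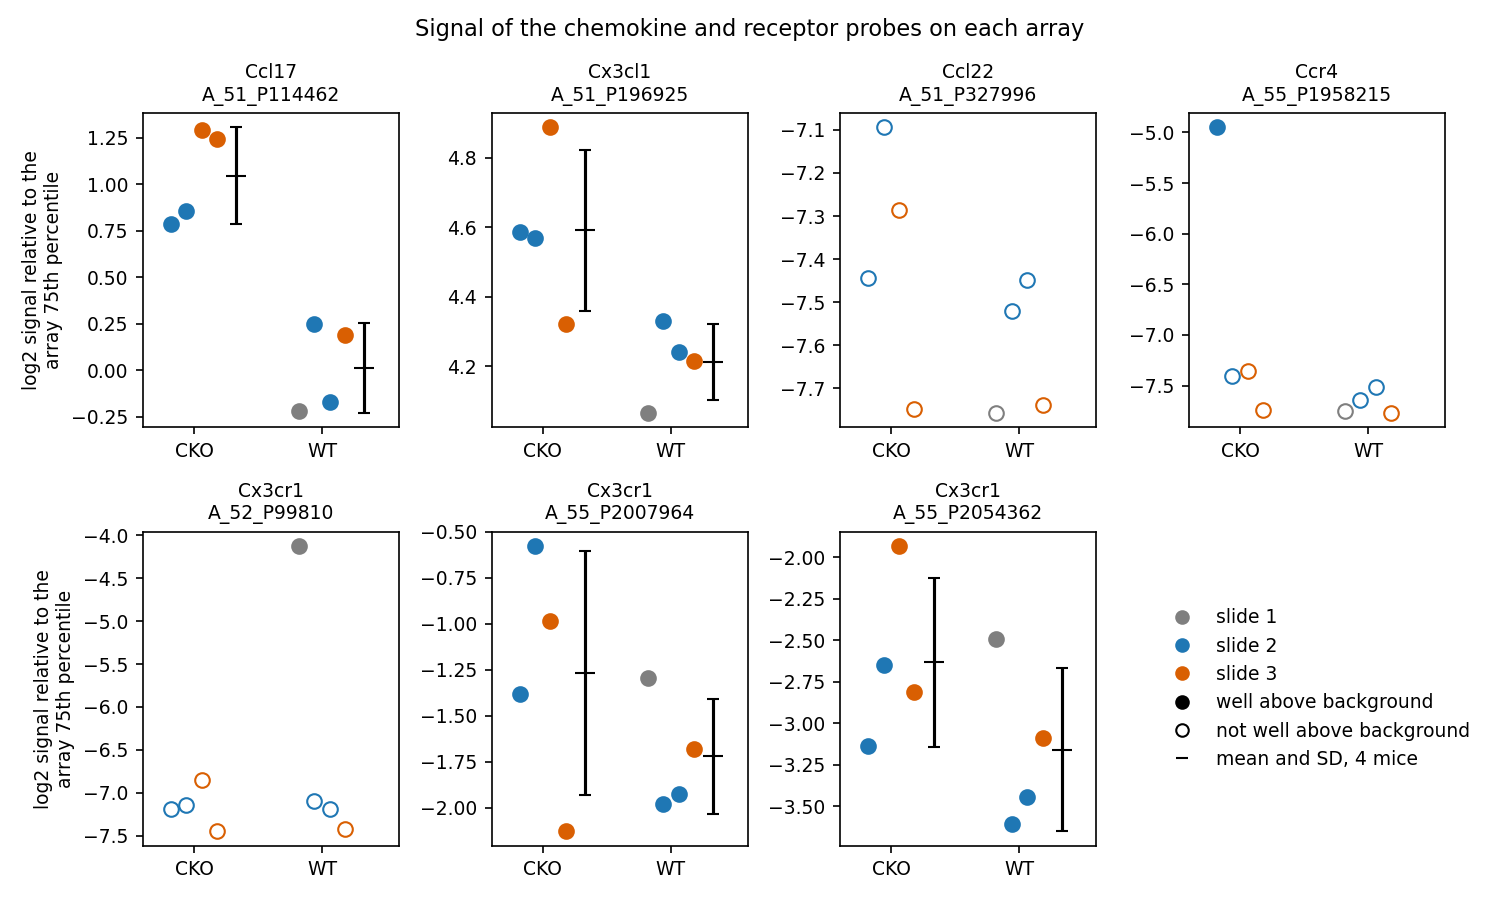
Log2 signal relative to each array's 75th percentile for the 7 chemokine cluster and receptor probes, with CKO mice left of WT mice; points are single mice coloured by slide, open points are not well above background and have no order, and the bar beside a group, drawn where all 8 arrays were well above background, is its mean with the SD. The Ccl17 points of the groups are apart by 0.54, the Cx3cl1 groups overlap narrowly, and Ccl22 has open points only.

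Ccl17 was the member with the clearest separation. Its probe lies at chr8:97335770-97335829 in the mm9 coordinates of the files. The signal was 0.78, 0.86, 1.29 and 1.24 in CKO mice 1 to 4, against -0.22, 0.25, -0.17 and 0.19 in WT mice 1 to 4. Every CKO mouse was above every WT mouse, and the lowest CKO value exceeded the highest WT value by 0.54. As raw intensities these were 7279, 7385, 9691 and 12409 in CKO mice and 4401, 5506, 3721 and 5848 in WT mice, and none of the 8 was near background. Ccl17 averaged 1.04 ± 0.26 in CKO mice and 0.011 ± 0.24 in WT mice (SD, n = 4 each), which is a difference of 1.03 with a standard error of 0.20 and a 2.05-fold higher signal in CKO mice. Of the 4 member probes well above background on every array, 1 (Ccl17) had groups that did not overlap with CKO higher and 0 with CKO lower, beside 1.71% and 1.56% of the 44316 probes kept. Because Ccl17 was chosen for this contrast, nothing is read from these shares.

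Within slide 2 the Ccl17 mean was 0.82 in 2 CKO mice and 0.036 in 2 WT mice, a difference of 0.78. Within slide 3 it was 1.27 in 2 CKO mice and 0.19 in 1 WT mouse, a difference of 1.08, and with slide as a block the difference was 0.90. Because every CKO mouse was above every WT mouse, a positive Ccl17 difference within each slide and without any 1 mouse was fixed in advance. Only its size is described. Ccl17 varied little among mice of a genotype, with a pooled SD of 0.25 against a median of 0.29 for probes of like brightness (1 of 10 equal classes by mean signal). That class had a median difference of 0.046, so Ccl17 stood 0.99 above it. Leaving out 1 mouse at a time, the Ccl17 difference stayed between 0.95 (without CKO 3) and 1.12 (without CKO 1).

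The promoter of Ccl17 is shown because this gene has the largest difference among the member probes measured on every array, beside the promoter of its neighbour Cx3cl1. The sequences are from RefSeq (GRCm38.p6, plus strand, 250 bases before to 50 after the annotated start), at chr8:94810203-94810502 for Ccl17 and chr8:94771930-94772229 for Cx3cl1. Capitals mark the only matches to the 4 motifs searched on both strands: TTC and GAA with 4 bases of any kind between them (bound by STAT factors) in Ccl17 and TATAAA (the TATA box) in Cx3cl1.
Ccl17 promoter: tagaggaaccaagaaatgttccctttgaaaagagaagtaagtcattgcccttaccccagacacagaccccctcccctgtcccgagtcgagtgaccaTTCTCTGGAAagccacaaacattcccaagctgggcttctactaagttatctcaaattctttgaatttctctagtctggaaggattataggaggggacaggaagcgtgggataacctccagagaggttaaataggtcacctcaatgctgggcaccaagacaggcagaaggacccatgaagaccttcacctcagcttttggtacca
Cx3cl1 promoter: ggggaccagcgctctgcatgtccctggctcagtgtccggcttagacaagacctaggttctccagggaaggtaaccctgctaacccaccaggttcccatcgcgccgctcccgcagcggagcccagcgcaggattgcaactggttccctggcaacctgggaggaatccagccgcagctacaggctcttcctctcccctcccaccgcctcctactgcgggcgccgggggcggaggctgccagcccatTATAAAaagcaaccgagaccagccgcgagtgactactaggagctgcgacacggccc
The STAT match begins 154 bases before the Ccl17 start, and 6.95% of 32851 mouse promoters hold at least 1 such match. Pairs of TTC and GAA at other spacings were not searched for and are not marked. The TATAAA of Cx3cl1 begins 6 bases before the annotated start and is held by 13.6% of promoters. The 2 promoters differ in base composition: that of Cx3cl1 has 64.7% GC and 19 CpG, and that of Ccl17 has 48% GC and 3 CpG, beside medians of 52.7% and 7 over all promoters. The other 2 motifs searched were the NF-kB consensus, present in 4.51% of promoters, and the CTCF core consensus, present in 0.557%, and neither has a match in these 300 bases of any of the 5 genes. Ccl22 (53.3% GC, 8 CpG), Ccr4 (46.3% GC, 3 CpG) and Cx3cr1 (54.3% GC, 5 CpG) had no match to any of the 4. A match of letters is not evidence of binding, and a missing match says nothing of a factor.

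Cx3cl1, the neuronal ligand, was well above background in every mouse. Its probe lies at chr8:97306185-97306244, 29.6 kb from that of Ccl17. The signal was 4.59, 4.57, 4.89 and 4.32 in CKO mice 1 to 4, against 4.07, 4.33, 4.24 and 4.22 in WT mice 1 to 4. The lowest CKO mouse (CKO 4) was just below the highest WT mouse (WT 2), and the other 3 CKO mice were above all WT mice. The means were 4.59 ± 0.23 in CKO mice and 4.21 ± 0.11 in WT mice (SD, n = 4 each), which is a difference of 0.38 with a standard error of 0.17 and a 1.30-fold higher signal.

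The Cx3cl1 difference was 0.29 within slide 2 and 0.39 within slide 3. Probes in its brightness class, the brightest of the 10, had a median difference of 0.16 under the 75th percentile scaling, which leaves 0.22 for Cx3cl1 above probes of like brightness. Under quantile normalization the median of that class was 0.029 and the Cx3cl1 difference was 0.28. In the authors' deposited table it was 0.24. The Cx3cl1 difference thus kept its direction in these settings, and its size depended on how bright probes were scaled.

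Ccl22, the other Ccr4 ligand, was not well above background on any array. Its probe lies at chr8:97274709-97274768, 31.5 kb from Cx3cl1 and 61.1 kb from Ccl17. Its intensities were 24.3, 29.8, 25.3 and 24.4 in CKO mice and 23.7, 25.3, 24.0 and 24.0 in WT mice, below the lowest intensity that counted as well above background on each array (69.1 to 113 in CKO mice and 56.4 to 113 in WT mice). No difference is given for Ccl22, since none can be measured below background. Of the 3 ligands in the cluster, Ccl17 and Cx3cl1 were measured in every mouse and Ccl22 in none.

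The receptor of Ccl17 and Ccl22, Ccr4, was well above background in 1 mouse, CKO 1, with an intensity of 137. In the other CKO mice it was 24.1, 24.1 and 24.6, and in WT mice it was 23.7, 23.2, 23.0 and 23.5. The probe lies at chr9:114399467-114399526. Apart from that array, CKO and WT mice alike gave a signal at background, so no difference between the genotypes is given for Ccr4.

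Cx3cr1, the fractalkine receptor, was measured by 3 probes. The probes A_55_P2007964 (chr9:119957811-119957870) and A_55_P2054362 (chr9:119957806-119957865) start 5 bases apart and share 55 of their 60 bases, so they are close to a repeat measurement of 1 stretch. The probe A_52_P99810 (chr9:119959018-119959077) starts 1207 bases from the nearer of them. It was well above background in 1 mouse, WT 1, with an intensity of 293.5, and had intensities of 28.9 to 34.3 in CKO mice and 28.8 to 33.9 in the other 3 WT mice.

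Probe A_55_P2007964 of Cx3cr1 had a signal of -1.38, -0.58, -0.98 and -2.13 in CKO mice 1 to 4, against -1.29, -1.98, -1.92 and -1.68 in WT mice 1 to 4. The groups overlapped: CKO 2 and CKO 3 were the highest of the 8 mice and CKO 4 was the lowest. The mean was -1.27 ± 0.66 in CKO mice and -1.72 ± 0.31 in WT mice (SD, n = 4 each), a difference of 0.45 with a standard error of 0.33. Probe A_55_P2054362 had a signal of -3.14, -2.65, -1.93 and -2.81 in CKO mice 1 to 4, against -2.49, -3.60, -3.45 and -3.09 in WT mice 1 to 4. Here CKO 3 was the highest and WT 2 the lowest, and the groups again overlapped. Its mean was -2.63 ± 0.51 in CKO mice and -3.16 ± 0.49 in WT mice (SD, n = 4 each), a difference of 0.52 with a standard error of 0.32. Deviations from the group means on the 2 overlapping probes had a Pearson r of 0.55 over the 8 arrays.

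The spread of Cx3cr1 among mice of a genotype was wider than that of the ligands, with pooled SDs of 0.52 and 0.50 against medians of 0.36 and 0.43 for probes of like brightness. Single mice moved its difference. On A_55_P2007964 it was 0.22 without CKO 2 and 0.74 without CKO 4, and on A_55_P2054362 it was 0.29 without CKO 3. Within slide 2 the 2 probes gave 0.97 and 0.63, and within slide 3 they gave 0.12 and 0.72. Both Cx3cr1 differences were thus positive under every one of these selections, with a size that depended on the mice included.

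**Figure D2:**
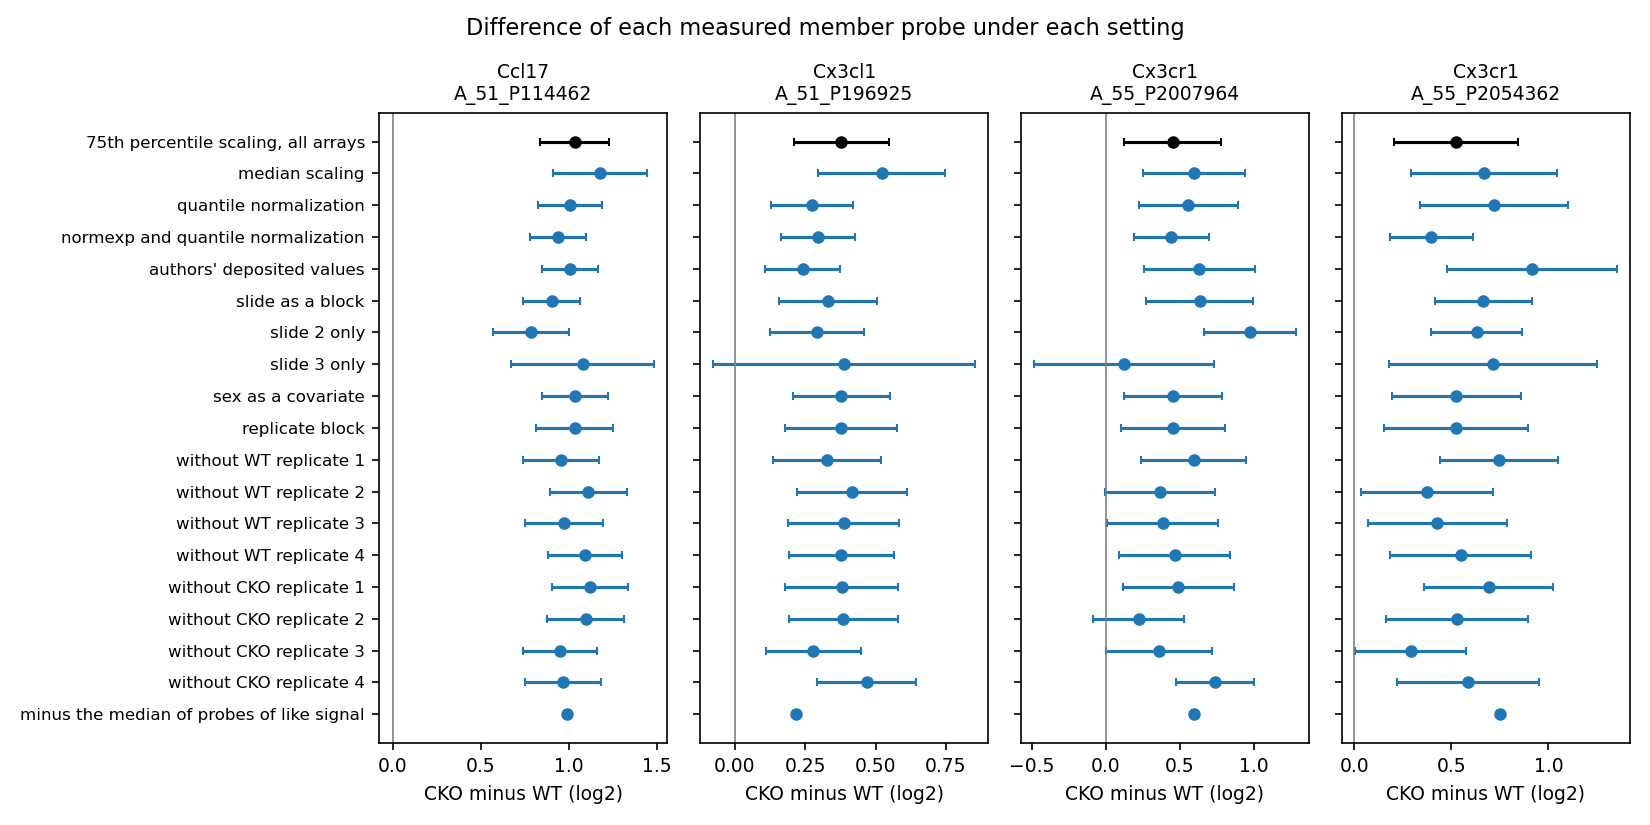
CKO minus WT difference in log2 signal for the 4 member probes well above background on all 8 arrays, under each scaling, with slide as a block, within slides and with single arrays left out; points are the differences, bars the standard error where there is one, and the vertical line is 0. Ccl17 spans 0.78 to 1.18 over the settings and Cx3cl1 0.22 to 0.52, and the Cx3cr1 probe A_55_P2007964 spans the widest range, 0.12 to 0.97.

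Across mice of the same genotype the ligands and the receptor did not move closely together. The Pearson r of deviations from the group means over 8 arrays was 0.30 for Ccl17 with Cx3cl1, -0.40 and 0.11 for Ccl17 with the 2 overlapping Cx3cr1 probes, and 0.36 and 0.19 for Cx3cl1 with them. These arrays share slides, so the values describe the 8 libraries and carry no p. Of 16722 genes with a symbol and signal on all arrays, those most like Ccl17 by this measure were Ago1 (r = 0.974), Kcng1 (0.967), Suv39h1 (0.951) and Dynlrb1 (0.946). Those most like Cx3cl1 were Phf7 (r = 0.991), Dusp4 (0.984), Ckmt1 (0.981) and Arl15 (0.979). For Cx3cr1 (A_55_P2007964) they were Il27ra (r = 0.949), Rbm28 (0.935), Kif1c (0.931) and Lypd6 (0.931). Being the highest of 16722 values over 8 arrays, these r are high in part by selection, and no shared regulation is read from them.

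The genes around the cluster were examined next, since Ccl17 and Cx3cl1 are neighbours. Of the 43 other genes measured within 1 Mb of the Ccl17 probe, 30 had a higher and 13 a lower mean in CKO mice, with a median difference of 0.18. Of all genes tested, 41.5% had a higher mean, with a median of -0.078. By limma 0 of the 43 passed an adjusted p of 0.05 in either direction (0% of all genes higher and 0.00339% lower). At an unadjusted p of 0.05, 5 were higher and 1 lower, where 2.5% of all genes were higher and 2.81% lower. Groups did not overlap for 2 of the 43, Arl2bp and Ccdc113, both higher in CKO mice, as for 1.96% of all genes in that direction, and for 0 in the lower direction, against 1.35%. Of these 43 genes, 60.5% were brighter than the median gene, and 34 were above the median difference of their own brightness class. Within slide 3 the split was 23 to 20 with a median of 0.086, and within slide 2 it was 31 to 12 with a median of 0.17.

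The neighbours nearest to the chemokine cluster did not all move alike. On the Ccl22 side, Arl2bp, which encodes a binding partner of the small GTPase Arl2, had 2.76, 2.62, 2.96 and 2.74 in CKO mice and 2.15, 2.27, 2.31 and 2.43 in WT mice. Its groups did not overlap, with a difference of 0.48 (SE 0.15, limma adjusted p = 0.724). Rspry1 (0.14) and Pllp (-0.030), a myelin-associated membrane protein, lay within their spread. On the other side, Ciapin1, a factor of iron-sulfur cluster assembly 10.8 kb from Ccl17, had 1.57, 1.36, 1.83 and 1.27 in CKO mice and 0.82, 0.96, 0.96 and 1.28 in WT mice, a difference of 0.50 (SE 0.18, limma adjusted p = 0.724). CKO 4 was just below WT 4, and the other CKO mice were above all WT mice. The next features beyond Ciapin1 have no gene symbol in the files: ENSMUST00000162120 at 24.0 kb and ENSMUST00000160364 at 39.0 kb had differences of 0.17 (SE 0.15) and 0.21 (SE 0.22). On slide 3 alone the Ciapin1 difference was 0.27, and the mean of the Arl2bp probes differed by 0.28.

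The largest difference among these neighbours was that of Ccdc113, a ciliary protein gene 747 kb from Ccl17. It had -0.90, -0.80, -0.77 and -0.93 in CKO mice and -2.01, -1.90, -1.53 and -1.83 in WT mice, a difference of 0.97 (SE 0.16, limma adjusted p = 0.333). Among neighbours well above background on every array, the second largest was a lower one, that of TC1641687. This transcript, at 40.5 kb, has no gene symbol. It had -1.65, -1.08, -2.11 and -2.15 in CKO mice and -1.16, -1.05, -1.32 and -0.93 in WT mice, a difference of -0.63 (SE 0.25, limma adjusted p = 0.724), and was the 1 neighbour lower at an unadjusted p of 0.05. Its groups overlapped, and the difference was -0.18 on slide 2 and -1.20 on slide 3. Drc7, another ciliary gene, had a difference of 0.54 with a standard error of 0.49, which was 0.22 without CKO 1, 0.30 without WT 4 and 1.00 without WT 2. A transcript named 1700121C10Rik has its probe between those of Cx3cl1 and Ccl17, at -17.6 kb from Ccl17, and was looked at after its values were seen. It was well above background on 6 arrays, with a difference of 0.95 and a standard error of 0.81. Ctcf lies 10.9 Mb from Ccl17 on the same chromosome, so alleles linked to the floxed Ctcf gene and the deletion itself cannot be told apart in the cluster's values.

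**Figure D3:**
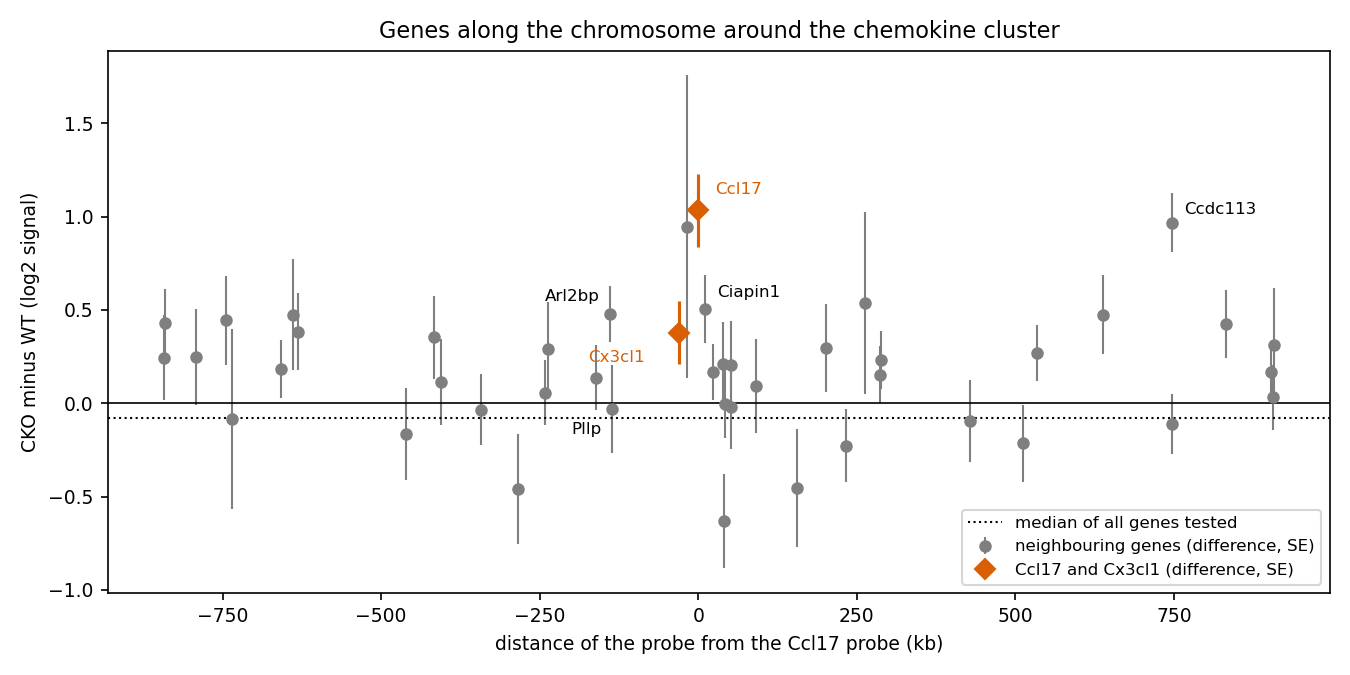
CKO minus WT difference in log2 signal (vertical, with SE) against the distance in kb of a gene's probe from the Ccl17 probe (horizontal), for Ccl17 and Cx3cl1 (diamonds) and the 43 other genes measured within 1 Mb (circles). Ccl17 at 1.03 and Ccdc113 at 0.97 are the highest of the points with small errors, and the dotted line is the median of all genes, -0.078.

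No chemokine gene measured outside the cluster passed an adjusted p of 0.05 in limma. Of all 29529 genes 0 were higher and 1 lower at that threshold, so this does not set them apart from the cluster. Of 18 further CC chemokine genes on the array 12 were measured, with 2 higher and 10 lower in CKO mice and a median of -0.23 beside -0.078 over all genes. At an unadjusted p of 0.05, where 2.5% of all genes were higher and 2.81% lower, 0 of the 12 passed, and 0 at an adjusted one. The 3 named by size were the eosinophil attractant Ccl24 (-0.38), the monocyte attractant Ccl8 (-0.35) and the Ccr7 ligand Ccl19 (-0.30), with limma adjusted p from 0.725 to 0.753. Without CKO 3 these were -0.083, -0.11 and -0.17, so that 1 array carried much of each. Of 16 CXC and XC chemokines 8 were measured, with 2 higher and 6 lower and a median of -0.13, and 0 passed. The neutrophil attractant Cxcl3 had -3.49, -4.11, -3.77 and -4.48 in CKO mice and -4.83, -4.44, -4.37 and -4.42 in WT mice, a difference of 0.55 (SE 0.23, limma adjusted p = 0.724) with overlapping groups. It was the only measured gene of these 2 lists with an unadjusted p under 0.05, where 2.5% of all genes were higher at that p. Its difference was 0.97 with quantile normalization and 1.20 in the authors' deposited values, but 0.31 with normexp and 0.30 on slide 3. Cxcl5 had a difference of -0.38, but 0.026 with normexp and 0.017 in the authors' deposited values. Cxcl9 had one of -0.33, but 0.045 with slide as a block, 0.43 on slide 3 and -0.061 without WT 1, so neither has a settled direction. Ccl3, Ccl11, Ccl12, Ccl20, Cxcl13 and Cxcl16 were not well above background on any array, like Ccl22.

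The median of the CC list was -0.13, -0.15, -0.41, -0.35 and -0.043 without WT 2, WT 3, WT 4, CKO 1 and CKO 3, and that of the CXC and XC list was -0.087 and -0.080 without WT 1 and WT 3. With median scaling the numbers higher and lower were 3 and 9 of the CC list and 4 and 4 of the other, and in the authors' deposited values they were 5 and 7 and 5 and 3, while the median over all genes moved to 0.065 and 0.026.

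Of 22 other chemokine receptors 15 were measured, with 2 higher and 13 lower in CKO mice and a median of -0.29. Of all genes 41.5% were higher, with a median of -0.078. In limma 0 of the 15 passed an adjusted or an unadjusted p of 0.05. Of all genes 2.5% were higher and 2.81% lower at the unadjusted p, and 0% and 0.00339% at the adjusted p. With 15 genes nothing is read from the 0. The 3 named by size were Ccr6 (-0.33), Ccr7 (-0.32), which guides cells to lymph nodes, and the scavenging receptor Ackr4 (-0.30). None of the 3 values was stable: Ccr6 was -0.040 in the authors' deposited values, Ccr7 was -0.038 without CKO 3, -0.061 without WT 3 and 0.029 in the authors' deposited values, and Ackr4 was -0.14 without CKO 4. With the authors' deposited values 9 receptors were higher and 6 lower, so the direction of this list depends on the scaling. Its median was -0.14, -0.44 and -0.083 without WT 2, CKO 2 and CKO 3. Against the median of their own brightness class 7 of 15 receptors were higher, as were 6 of the 12 CC chemokines. Ackr2, a scavenger of Ccl17 and Ccl22 among others, had a difference of -0.032.

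Genes of signalling downstream of chemokine receptors had more higher than lower means. Of 22 measured of 27, 16 were higher and 6 lower in CKO mice, with a median of 0.17 and 18 above the median of their own brightness class. None of the 22 passed an adjusted p of 0.05 in limma. At an unadjusted p of 0.05, 2 were higher and 0 lower, where 2.5% of all genes were higher and 2.81% lower. The G protein subunit Gnb1 had 5.43, 5.67, 5.77 and 5.49 in CKO mice and 4.95, 5.21, 5.24 and 5.18 in WT mice. Its groups did not overlap, as for 1.96% of all genes with CKO higher, and the difference was 0.44 (SE 0.15, limma adjusted p = 0.724). The lipid kinase subunit Pik3cg had a difference of 0.79 (SE 0.34, limma adjusted p = 0.724), and the actin regulator Was had one of -0.48 (SE 0.71), which was 0.18 without WT 3. Averaged over all probes of the gene, the difference was 0.17 for Gnb1 and 0.18 for Pik3cg. Without CKO 3 the list's median was 0.088. Gnai2, the G protein subunit that chemokine receptors use in leukocytes, differed by 0.025.

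Of the genes that process or bind these ligands, 9 of 10 were measured, with 3 higher and 6 lower and a median of -0.093. The proteases that release Cx3cl1 differed in their means, with 0.44 (SE 0.24) for Adam17 and -0.075 for Adam10. The integrin subunit Itga4 had -2.36, -2.44, -1.38 and -1.72 in CKO mice and -1.07, -1.73, -1.45 and -0.93 in WT mice, a difference of -0.68 (SE 0.29, limma adjusted p = 0.724) with overlapping groups. It was the only gene of the list with an unadjusted p under 0.05, where 2.81% of all genes were lower at that p. The integrin subunit Itgb3 had a difference of -0.29, which was -0.076 without CKO 3 and 0.064 on slide 3. Adam17 had 0.25 without CKO 3. The list's direction is not settled: 6 of 9 were higher with median scaling, and its median lay between -0.18 (without WT 2) and -0.011 (without WT 1) when 1 mouse was left out, with -0.15, -0.060, -0.15 and -0.16 without WT 4, CKO 1, CKO 2 and CKO 4.

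A list named inducers of Ccl17 and Ccl22 held 17 cytokines, receptors and transcription factors tied to the regulation of these ligands. That each of them induces the ligands in dendritic cells or macrophages is not claimed. Of the 17, 14 were measured, with 5 higher and 9 lower in CKO mice and a median of -0.30. None passed an adjusted p of 0.05 in limma. At an unadjusted p of 0.05, 0 were higher and 3 lower, where 2.5% of all genes were higher and 2.81% lower. The 3 were Stat6, Irf4 and Ifng. Irf4 (-0.93) was well above background on 7 arrays and Ifng (-1.81, the largest difference of the list) on 6. Stat6, which carries interleukin 4 signals to the nucleus, had -2.35, -2.79, -3.51 and -2.53 in CKO mice, against -2.05, -2.31, -1.99 and -2.28 in WT mice. Every CKO mouse was below every WT mouse, as for 1.35% of all genes, and the Stat6 difference was -0.64 (SE 0.25, limma adjusted p = 0.724). It was -0.40 without CKO 3 and -0.23 with normexp. Stat5a had a difference of -0.48 and the NF-kB subunit Rela one of 0.37, which without CKO 3 were -0.18 and 0.080. The list's median was -0.17 without CKO 3, -0.16 with median scaling, -0.13 with quantile normalization, -0.063 with normexp, -0.10 in the authors' deposited values and -0.11 against genes of like brightness.

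**Figure D4:**
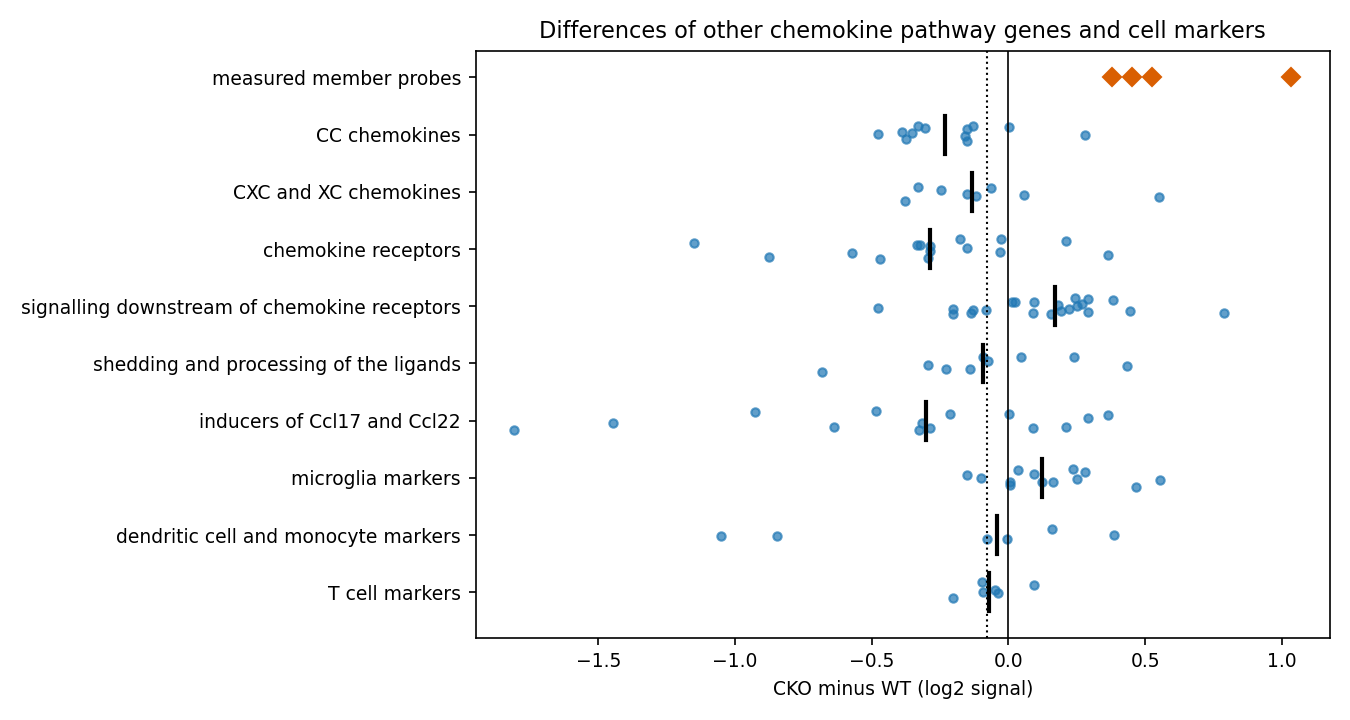
CKO minus WT difference in log2 signal for the measured genes of each chemokine list and of the marker lists of other cell types; circles are genes, bars are list medians, diamonds are the 4 member probes measured on every array and the dotted line is the median of all genes, -0.078. The signalling list (median 0.17) lies to the higher side, and the CC chemokine (-0.23), receptor (-0.29) and inducer (-0.30) lists lie to the lower side. Against genes of like brightness these medians were 0.090 for signalling and -0.059, -0.024 and -0.11 for the others.

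The cells known to make or bind these chemokines were followed through their markers. Of 15 microglia markers, 13 were measured, with 11 higher and 2 lower and a median of 0.12. Their summed linear signal, relative to each array's 75th percentile, was 95.4 to 127 in CKO mice and 82.1 to 110 in WT mice. That sum is weighted to the brightest markers, Itgam, Siglech and Csf1r (means of 6.08, 4.21 and 4.05 in CKO mice), and says little of the others. The median log2 signal of the list was -0.55, -0.77, -0.83 and -0.98 in CKO mice 1 to 4 and -1.06, -1.12, -1.12 and -1.23 in WT mice 1 to 4, without overlap. How often the medians of such lists separate was not tested, so nothing is read from this. The median differences of the astrocyte (0.21) and oligodendrocyte (0.18) lists were larger than that of the microglia list. Laptm5, a lysosomal membrane protein gene, had a difference of 0.55 with groups that did not overlap, as for 1.96% of all genes in that direction. In limma 0 of 13 passed the adjusted threshold. At an unadjusted p of 0.05, 2 were higher and 0 lower, where 2.5% of all genes were higher and 2.81% lower. Csf1r (0.035), Siglech (0.0047, or -0.28 over the mean of its probes) and Itgam (0.25, or -0.032 over that mean) had smaller differences than Laptm5. Tmem119 had a difference of 0.0041, and the 2 lower markers were P2ry12 (-0.10) and Selplg (-0.15). Gpr34 was not well above background on any array and C1qc was on 3. The part of the microglia list's difference in the Cx3cr1 values was not tested. Without CKO 3 the median of the microglia list was 0.26, and within slide 2 it was 0.48.

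Dendritic cells and macrophages are the cells known to make Ccl17 and Ccl22. Of 11 dendritic cell and monocyte markers 6 were measured, with 2 higher and 4 lower and a median of -0.041, and their summed signal was 1.40 to 2.31 in CKO mice and 1.48 to 2.03 in WT mice. Itgax and Mrc1 were not well above background on any array, Flt3 (-0.078) and Zbtb46 (-0.0042) had means close to equal, and Cd74 had a difference of 0.39. Of 7 markers of T cells, which are known to carry Ccr4, 6 were measured, with 1 higher and 5 lower, a median of -0.071 and a summed signal of 2.80 to 4.53 in CKO mice and 2.69 to 4.46 in WT mice. With median scaling 4 of the 6 dendritic cell and monocyte genes and 5 of the 6 T cell genes were higher.

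Markers of the Camk2a-Cre neurons from which the RNA was drawn were present on all arrays. All 8 excitatory neuron markers were measured, with 6 higher and 2 lower and a median of 0.21 (Camk2a 0.057, Slc17a7 0.24), and their summed signal was 117 to 151 in CKO mice and 110 to 131 in WT mice. With quantile normalization and in the authors' deposited values 5 were higher and 3 lower, with medians of 0.096 and 0.073, and the median was 0.057 against genes of like brightness. Markers of other cells were also well above background, with medians of 0.15 for 5 interneuron, 0.21 for 6 astrocyte, 0.18 for 7 oligodendrocyte and -0.0035 for 6 endothelial genes. Genes that mark cells without Camk2a-Cre were thus measured beside the chemokine genes, and the part of such cells in the chemokine values was not tested.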

How the data were processed

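RNA on HA-tagged ribosomes of 8 mouse hippocampi (4 CKO, 4 WT, labelled as biological replicates) was measured on 1-colour arrays. Each deposited scanner file gives a spot intensity in the red channel, made with Agilent Feature Extraction 11.5 per the submitters' processing notes, with background subtraction and multiplicative detrending per the file headers. The authors also deposited a table of linear intensities per spot, whose ranks follow the background-subtracted signal, with centring and normalization unstated. It was used as an alternative, as log2.

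Each array had 62976 spots, of which 59305 remained once control spots were set aside. Outlier spots, as flagged in the files, were dropped and repeat spots averaged, and 55663 of 55681 probes then had a value on every array; none was saturated. Processed signals were put on a log2 scale and the 75th percentile of the array was subtracted. A filter for signal well above background on 4 or more arrays left 44316 probes, from which the brightest of each gene was used (29529 genes). Genotypes were compared over all of them with limma 3.58.1 (R 4.3.3) by a two-sided moderated test from lmFit and eBayes with Benjamini-Hochberg adjustment, which was also tested on simulated data. The number of arrays limits the precision. Probe coordinates are mm9, per the file headers. Gene names came from the files or, by accession, from a GRCm38.p6 table, which named 23207 of the kept probes.

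The 5 genes, the gene lists and the tests were chosen with earlier results of these data known. Named were all member probes, the 3 largest differences of each chemokine list and of the neighbours among genes measured on all 8 arrays, the 3 nearest neighbours on each side, the 4 genes most like each measured member, and the 2 brightest of each marker list; further genes were named for their known role or after their values were seen. These include features of the files without a gene symbol. Alternatives were median scaling, quantile normalization, normexp (offset 50) with quantile normalization, the authors' values, slide as a block, single slides, sex as a covariate, a replicate block, other filters on dim probes, the mean of a gene's probes and leaving out each array.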

Additional observations from a re-analysis of the deposited data

Results flagged for a closer look

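The Ccr4 probe A_55_P1958215 in CKO 1 stood far from the other CKO mice, at -4.95 (intensity 137), where the gap to its nearest neighbour was 0.864 of the group's range. The Cx3cr1 probe A_52_P99810 in WT 1 stood far from the other WT mice, at -4.12 (intensity 293.5), with a gap of 0.901 of the range. Both gaps are above Dixon's 95% critical value for groups of 4, which chance passes in about 1 of 20 groups, and 14 groups were examined. In both, the other 3 mice of the group were not well above background, so the range beside the outlying value is that of the background.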

How the results depend on the processing

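The difference of Ccl17 ranged from 0.78 (slide 2) to 1.18 (median scaling) over the alternatives, and those of Cx3cl1, Cx3cr1 A_55_P2007964 and Cx3cr1 A_55_P2054362 from 0.22 to 0.52, 0.12 to 0.97 and 0.40 to 0.91. None changed sign. The value for Cx3cr1 A_55_P2007964 moved by more than the SD between replicates on slide 2 alone, to 0.97, and leaving out 1 array gave 0.22 to 0.74. Leaving out 1 array gave 0.95 to 1.12 for Ccl17, 0.28 to 0.47 for Cx3cl1 and 0.29 to 0.75 for A_55_P2054362.

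Genes called lower in CKO mice were 1 in the main analysis and 0 with quantile normalization, the authors' values, slide 2, slide 3, the replicate block and probes above background on all 8 arrays, and 2 with no filter on dim probes. Leaving out 1 array gave 0 (without WT 2, WT 3, WT 4, CKO 2 or CKO 3) to 2 (without CKO 4). Genes called higher were 0, but 3 with normexp, 2 with sex as a covariate and 5 with probes above background on all 8 arrays, and 0 to 0 when 1 array was left out. The cause was not tested.

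The median of the signalling list was 0.17, against 0.31 with median scaling, 0.10 with quantile normalization, 0.099 with normexp, 0.096 with the authors' values, 0.081 on slide 2, 0.10 on slide 3 and 0.090 above the median of genes of like brightness, an alternative chosen after seeing the data. Leaving out 1 array gave 0.088 to 0.23. The other 5 chemokine lists and the neighbours moved by less than the spread between replicates, the receptor list from -0.32 to 0.029 and the neighbours within 1 Mb from 0.086 to 0.33. Of 1100 values of 55 named genes under alternatives 42 moved by more than that spread.

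Mice with the same replicate number did not deviate together (r of -0.32, 0.39, -0.42 and 0.068 for numbers 1 to 4), so the numbers were not taken to pair them. With the replicate block Ccl17 stayed at 1.03, and genes called lower and higher were 0 and 0. Of the members, Ccl22, Ccr4 and 1 Cx3cr1 probe give no difference because their signal was at background.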
